A study of Mus musculus with 6 samples.

Results

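The 10 genes described here encode chaperones that fold and protect the contractile apparatus of muscle. They are the myosin chaperones Unc45b and Smyd1, the muscle kelch proteins Klhl40 and Klhl41, and the small heat shock proteins Hspb1, Hspb2, Hspb3, Hspb7, Hspb8 and Cryab. They were picked by gene symbol from the 27179 genes of each table, and all 10 were present once and tested in both. RNA from the immortalised mouse myoblast line C2C12 was sequenced, with 2 libraries in each of 3 groups: cells stably transfected with an shRNA against BAF250A, cells with an shRNA against BRD9, and cells with a scrambled shRNA as control. All 3 groups shared the same cell line, stable transfection, low-serum medium with 2% horse serum and 2 µg/ml insulin, and harvest 48 h after differentiation was induced. The libraries of a group are called biological duplicates, so p-values rest on 2 cultures per group. The deposited test fits 1 spread per gene over both groups of a comparison. Each group is its own stable transfection, so differences between transfections cannot be told apart from the knockdown. The clonality of the stable lines and the number of shRNA constructs per target are not given in the sources used here. BAF250A, the product of Arid1a, belongs to the BAF complex and BRD9 to the ncBAF complex, 2 kinds of SWI/SNF chromatin remodeller. The series asks whether the 2 complexes are needed differently when muscle cells differentiate.

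Myosin heads do not fold unaided. UNC45B binds the myosin motor together with HSP90 and holds it until it is folded, and SMYD1 is a muscle methyltransferase that works with this machinery during thick filament assembly. KLHL40 and KLHL41 are kelch proteins that stabilise thin filament proteins, nebulin and leiomodin among them, and loss of either causes nemaline myopathy in humans. The small heat shock proteins need no ATP: they hold partly unfolded proteins until the HSP70 system refolds them or they are removed. HSPB1 and CRYAB protect actin, desmin and titin. HSPB8 works with BAG3 in chaperone-assisted autophagy. HSPB2 and HSPB3 form a muscle complex of their own, and HSPB7 is a heart and muscle member that binds filamin C.

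Because several of these genes moved together, the 150 bases before the start site of the RefSeq promoter table are shown for the 5 genes that differed between the knockdowns (Unc45b, Smyd1, Klhl40, Klhl41 and Hspb7) and for 2 small heat shock protein genes with lower reads in both knockdowns (Hspb1 and Hspb8). Sequences are from RefSeq on GRCm38.p6, read 5′ to 3′ on the gene's strand, and RefSeq promoters were matched by symbol for 8 of the 10 genes. Capitals mark every match, on either strand, to 7 motifs: the E-boxes CAGCTG and CAGGTG, the MEF2 site, the CArG box, the heat shock element units GAANNTTC and TTCNNGAA, and the TATA box TATAAA.
Unc45b: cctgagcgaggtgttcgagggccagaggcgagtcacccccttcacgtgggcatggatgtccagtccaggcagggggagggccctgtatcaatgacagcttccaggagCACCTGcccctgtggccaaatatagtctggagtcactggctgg
Smyd1: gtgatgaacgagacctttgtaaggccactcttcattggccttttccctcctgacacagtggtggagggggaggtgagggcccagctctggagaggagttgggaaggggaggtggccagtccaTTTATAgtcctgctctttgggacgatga
Klhl40: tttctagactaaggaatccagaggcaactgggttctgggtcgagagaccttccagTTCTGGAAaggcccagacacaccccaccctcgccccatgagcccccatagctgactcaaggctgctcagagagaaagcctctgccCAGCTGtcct
Klhl41: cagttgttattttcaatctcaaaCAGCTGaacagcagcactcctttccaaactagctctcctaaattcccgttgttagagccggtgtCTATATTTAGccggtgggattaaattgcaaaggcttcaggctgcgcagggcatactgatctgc
Hspb7: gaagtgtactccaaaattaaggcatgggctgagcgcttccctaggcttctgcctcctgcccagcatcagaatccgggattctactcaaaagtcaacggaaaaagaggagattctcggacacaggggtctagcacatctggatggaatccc
Hspb1: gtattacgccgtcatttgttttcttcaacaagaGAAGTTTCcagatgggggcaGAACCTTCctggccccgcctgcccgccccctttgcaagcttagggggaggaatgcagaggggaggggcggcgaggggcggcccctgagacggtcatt
Hspb8: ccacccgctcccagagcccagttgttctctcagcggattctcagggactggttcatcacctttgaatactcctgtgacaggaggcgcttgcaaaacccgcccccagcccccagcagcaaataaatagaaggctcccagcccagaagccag
The windows lie at chr11:82911103-82911252 on the plus strand for Unc45b, at chr6:71262282-71262431 on the minus strand for Smyd1, at chr9:121777457-121777606 on the plus strand for Klhl40 and at chr2:69669970-69670119 on the plus strand for Klhl41. Those of the small heat shock proteins lie at chr4:141420629-141420778 on the plus strand for Hspb7, at chr5:135887769-135887918 on the plus strand for Hspb1 and at chr5:116422865-116423014 on the minus strand for Hspb8. Unc45b holds CAGGTG, written CACCTG on its own strand, 43 bases before the start. Smyd1 holds TATAAA on the opposite strand 28 bases before it. Klhl40 holds TTCNNGAA at 95 bases and CAGCTG at 10 bases before the start. Klhl41 holds CAGCTG at 127 bases and a MEF2 site at 63 bases. Hspb1, the classical heat-inducible member, holds GAANNTTC at 117 and at 97 bases before the start. Hspb3, not printed, holds a MEF2 site at 12 bases that overlaps TATAAA at 11 bases, and the windows of Hspb7 and Hspb8 hold none of the 7. Among 32851 promoters of this length the shares were 8.39% for CAGCTG, 10.6% for CAGGTG, 1.67% for MEF2, 0.916% for CArG, 3.95% for GAANNTTC, 4.21% for TTCNNGAA and 7.57% for TATAAA. For Klhl40 that start site is not the first base of the RefSeq gene, which begins upstream at position 121777499, so part of its window lies inside the gene. In the GENCODE annotation Unc45b begins at 82910550 on the plus strand and Smyd1 at 71322233 on the minus strand. Their whole windows thus lie inside those GENCODE genes. A match of letters is a description of the sequence and does not show that a factor binds there.

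The tables list 1 mean per gene, but the whole reads of each library could be recovered from them for 15706 of the 16311 genes tested in both comparisons (96.3%), all 10 genes included. Values per library below are these recovered reads divided by the library's size factor, and are called normalized reads. The size factor is the median, over genes, of the library's reads relative to the gene's geometric mean over all libraries. It was 1.66 and 1.15 in the scrambled libraries 1 and 2, and it does not follow depth alone. Library letters were not recovered, so in each group library 1 is the one with the larger size factor. Recovered depth was 21517110 and 21515515 reads in BAF250A knockdown, 22566140 and 22181393 in BRD9 knockdown and 37548973 and 33661139 in the scrambled shRNA, and both comparisons share the same 2 scrambled libraries. These 2 controls stood apart from each other. Among genes with a mean of 100 or more, the libraries of a group differed by over 2-fold in 1.37% of genes in BAF250A knockdown, in 12.6% in BRD9 knockdown and in 40.2% in the scrambled shRNA. Of the 9 chaperone genes at that level, all 9 were higher in scrambled library 2 than in library 1, by 0.40 to 1.53 on the log2 scale (median 1.22), and 6 of them by over 2-fold. Ckm, the muscle creatine kinase and a myotube marker, went the same way, with 6534 normalized reads in scrambled library 1 and 21879 in library 2. Its part in the results was not tested, and results without either control are given after the comparisons.

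**Figure D1:**
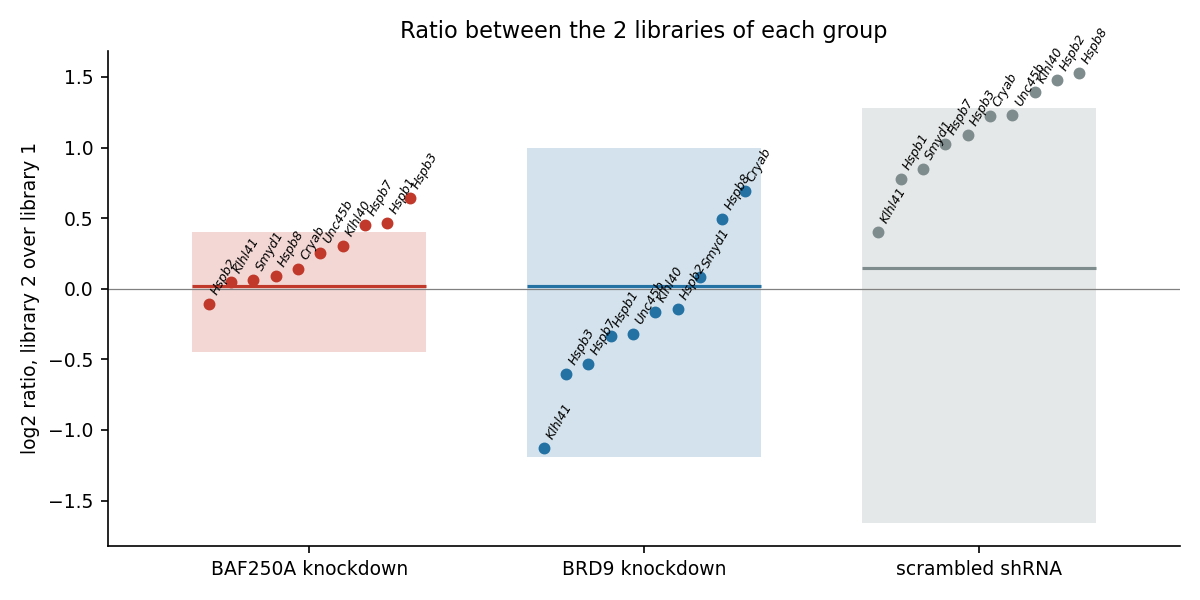
The vertical axis is the log2 ratio of normalized reads, library 2 over library 1, for each of the 10 genes (points) in each group. Shaded boxes span the 5th to 95th percentile of genes with a mean of 100 or more and the line in each is their median. All points of the scrambled shRNA lie above 0, with Hspb8 highest at 1.53.

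The targeted genes were lower in their own knockdown. The deposited log2 fold changes are positive where the knockdown is higher, and they are shrunken towards 0. Arid1a had 1271 and 1005 normalized reads in BAF250A knockdown, against 6184 and 3093 with scrambled shRNA, and the log2 fold change per the authors' deposited table was -1.95 (standard error, SE, 0.48; Wald adjusted p = 0.000381). Brd9 had 181 and 364 normalized reads in BRD9 knockdown, against 756 and 981 with scrambled shRNA, and the authors' deposited table gives -1.60 (SE 0.54; Wald adjusted p = 0.0252).

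Most of the sarcomere chaperones were lower in BAF250A knockdown. By the Wald test of the authors' deposited table, taken at an adjusted p below 0.05, 8 of the 10 genes fell and 0 rose, where 17.5% of all 16450 tested genes were called lower. Both myosin chaperones, both kelch proteins and 4 of 6 small heat shock proteins fell, while Hspb2 and Hspb3 did not pass. The median log2 fold change of the 10 was -2.22, against -0.18 over all genes tested. In 9 of the 10 genes both BAF250A libraries were below both scrambled libraries, an arrangement seen in 37.5% of 15706 genes with recovered reads. The count fell to 4 with Bonferroni adjustment, and only Unc45b passed when the z scores were scaled by their own spread over all genes. In bulk RNA, fewer cells that make a transcript and less transcript per cell cannot be told apart.

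Unc45b (chr11:82910550-82943403, plus strand) fell the most of the 10. It had 113 and 135 normalized reads in the BAF250A libraries, against 1912 and 4481 in the scrambled libraries. The groups were far apart, and the authors' deposited table gives a log2 fold change of -4.54 (SE 0.51; Wald adjusted p = 2.1e-17). The annotation places the antisense genes Unc45bos and Slfn5os over Unc45b, and 7.33% of its 50-base words occur in other transcripts. Smyd1 (chr6:71213940-71322233, minus strand) had 427 and 446 normalized reads in BAF250A knockdown, against 1923 and 3469 with scrambled shRNA. The 2 knockdown libraries were nearly equal and both below the controls, at a log2 fold change of -2.54 (SE 0.47; Wald adjusted p = 6.8e-07), per the authors' deposited table.

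The 2 kelch genes moved by similar amounts. Klhl40 (chr9:121777607-121783818, plus strand) had 404 and 499.5 normalized reads in BAF250A knockdown, against 1273 and 3343 with scrambled shRNA. The antisense gene Gm47108 overlaps Klhl40 and shares 17.5% of its 50-base words. The log2 fold change of Klhl40 per the authors' deposited table was -2.26 (SE 0.52; Wald adjusted p = 0.000122). Klhl41 (chr2:69670120-69684230, plus strand) had 1311 and 1356 normalized reads in BAF250A knockdown, against 5421 and 7160 with scrambled shRNA. Neither gene's groups overlapped, and Klhl41 stood at -2.17 (SE 0.43; Wald adjusted p = 4.83e-06), per the authors' deposited table.

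Among the small heat shock proteins, Hspb7 (chr4:141420779-141425311, plus strand) fell the most. It had 74.4 and 102 normalized reads in BAF250A knockdown, against 627 and 1275 with scrambled shRNA, and the authors' deposited table gives -3.31 (SE 0.51; Wald adjusted p = 2.15e-09). Hspb8 (chr5:116408491-116422864, minus strand), the BAG3 partner, had 3586 and 3812 normalized reads in BAF250A knockdown, against 9981 and 28755 with scrambled shRNA. Its controls differed by more than 2-fold, yet the lower of them was above both knockdown libraries, and the log2 fold change was -2.29 (SE 0.52; Wald adjusted p = 9.74e-05), per the authors' deposited table. Cryab (chr9:50751325-50756636, plus strand), alpha-B crystallin, had 6412 and 7075 normalized reads in BAF250A knockdown, against 16345 and 38190 with scrambled shRNA. The groups did not overlap, and the authors' deposited table gives -1.94 (SE 0.49; Wald adjusted p = 0.000601). Hspb1 (chr5:135887919-135889563, plus strand), the mouse counterpart of human HSP27, had 7513 and 10385 normalized reads in BAF250A knockdown, against 22344 and 38376 with scrambled shRNA. It fell by 1.70 (SE 0.46; Wald adjusted p = 0.00154), per the authors' deposited table, and since 50.1% of its 50-base words also occur in Gm9817 and Hsp25-ps1, its count is uncertain.

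The 2 partners HSPB2 and HSPB3 did not pass in BAF250A knockdown. Hspb2 (chr9:50751078-50752354, minus strand) had 3033 and 2813 normalized reads in BAF250A knockdown, against 1672 and 4661 with scrambled shRNA. The knockdown values lay between the 2 controls, and the authors' deposited table gives -0.09 (SE 0.52; Wald adjusted p = 0.923). Hspb2 and Cryab lie on opposite strands and overlap by 252 exonic bases, of 834 in Hspb2 and 1479 in Cryab. The strand setting of the counting was not stated in the sources used here, so the reads of this stretch are uncertain for both genes. Hspb3 (chr13:113662896-113663676, minus strand) had the fewest reads of the 10, with 12 and 18 whole reads in BAF250A knockdown, against 60 and 88 with scrambled shRNA. In normalized reads these were 13.9 and 21.8 in BAF250A knockdown, against 36 and 76.6 with scrambled shRNA, so the groups did not overlap. At this depth the log2 fold change was -1.52 (SE 0.75; Wald adjusted p = 0.113), per the authors' deposited table, with an unadjusted p of 0.041.

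**Figure D2:**
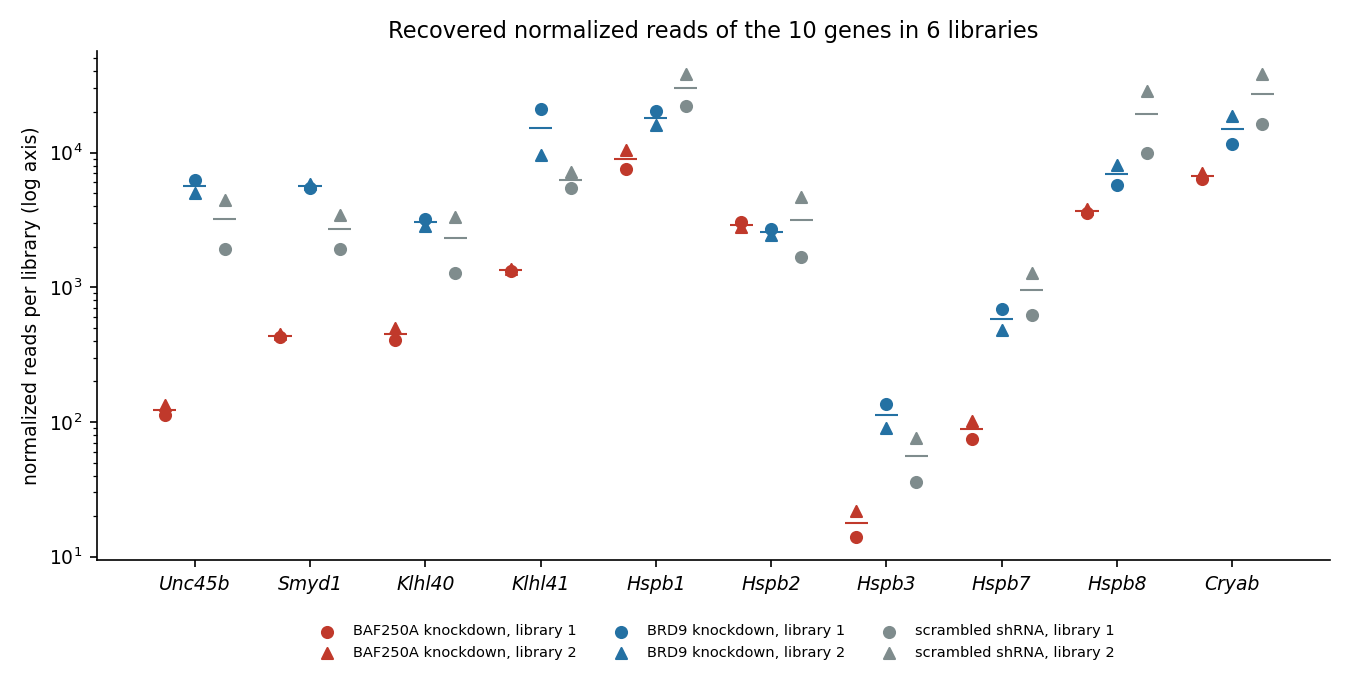
Normalized reads (log axis) of the 10 genes in the 2 libraries of BAF250A knockdown, BRD9 knockdown and scrambled shRNA (circle, library 1; triangle, library 2), with a bar at each group's mean. In every gene but Hspb2 both BAF250A points lie below both scrambled points, and Unc45b shows the widest gap.

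In BRD9 knockdown 0 of the 10 genes passed the Wald test per the authors' deposited table, where 14.4% of all 17198 tested genes were called in either direction. At an unadjusted p below 0.05 there were 3 of 10 (Smyd1, Klhl41 and Hspb8), where 24.1% of all genes pass, and limma on the recovered reads also called 0 (15.2% of all genes). The median log2 fold change was 0.07 for the 10 and -0.15 for all genes tested. Both BRD9 libraries were above both controls for Unc45b, Smyd1, Klhl41 and Hspb3 (22.6% of all genes), and below both for Hspb1 and Hspb8 (29.6% of all genes). The 2 myosin chaperones and 2 kelch genes had positive fold changes, and 5 of the 6 small heat shock proteins negative ones. Of all 17198 genes tested, 7644 were positive and 9554 negative.

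Unc45b had 6247 and 5007 normalized reads in BRD9 knockdown, against 1912 and 4481 with scrambled shRNA. Both were above the higher control, but the log2 fold change of the authors' deposited table, 0.79 (SE 0.53), did not pass (Wald adjusted p = 0.383). Smyd1 had 5468 and 5806 normalized reads in BRD9 knockdown, against 1923 and 3469 with scrambled shRNA, and stood at 1.03 (SE 0.50; Wald adjusted p = 0.177), per the authors' deposited table. Klhl41 had 20942 and 9562 normalized reads in BRD9 knockdown, against 5421 and 7160 with scrambled shRNA. Its 2 knockdown libraries differed by 2.19-fold, and the authors' deposited table gives 1.23 (SE 0.53; Wald adjusted p = 0.112). Klhl40 had 3211 and 2870 normalized reads in BRD9 knockdown, inside the control range of 1273 to 3343, at 0.39 (SE 0.55; Wald adjusted p = 0.73), per the authors' deposited table.

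Of the 6 small heat shock proteins 0 passed in BRD9 knockdown, and 5 had negative fold changes. Hspb8 had 5767 and 8121 normalized reads in BRD9 knockdown, against 9981 and 28755 with scrambled shRNA, and was the nearest of the 10 to a call at -1.39 (SE 0.56; Wald adjusted p = 0.0808), per the authors' deposited table. Hspb1 had 20194 and 16042 normalized reads in BRD9 knockdown, against 22344 and 38376 with scrambled shRNA, at -0.71 (SE 0.50; Wald adjusted p = 0.407), per the authors' deposited table. Both genes' groups were separate, but the gap below the lower control was small beside the distance between the controls. Cryab had 11496 and 18552 normalized reads in BRD9 knockdown, against 16345 and 38190 with scrambled shRNA, at -0.81 (SE 0.55), per the authors' deposited table. Hspb7 had 692 and 478 normalized reads in BRD9 knockdown, against 627 and 1275 with scrambled shRNA, at -0.66 (SE 0.54), per the authors' deposited table. Those groups overlapped. Hspb2, with 2726 and 2464 normalized reads in BRD9 knockdown against 1672 and 4661 with scrambled shRNA, lay inside the control range at -0.26 (SE 0.55), per the authors' deposited table. Hspb3 had 137 and 90.1 normalized reads in BRD9 knockdown, against 36 and 76.6 with scrambled shRNA, at 0.96 (SE 0.64; Wald adjusted p = 0.375), per the authors' deposited table.

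The 2 knockdowns differed for 5 of the 10 genes. The difference of the log2 fold changes, BAF250A minus BRD9, was tested with a normal z test, with p-values adjusted by Benjamini-Hochberg across the 16311 genes that have a test in each table, of which 1.99% were called lower in BAF250A. All 5 were lower in BAF250A knockdown. The 2 comparisons share their controls, so the assumed error is too large. Unc45b had 113 and 135 normalized reads in BAF250A knockdown, against 6247 and 5007 in BRD9 knockdown, a difference of -5.33 (95% interval -6.77 to -3.88; z adjusted p = 7.28e-10). For Smyd1 the difference was -3.58 (-4.92 to -2.23; z adjusted p = 3.53e-05) and for Klhl41 -3.40 (-4.73 to -2.06; z adjusted p = 0.000102). Klhl40 (-2.65, interval -4.13 to -1.17; z adjusted p = 0.0212) and Hspb7 (-2.65, interval -4.10 to -1.19; z adjusted p = 0.0183) passed more narrowly. The myosin chaperones and kelch proteins thus all passed, and 1 of the 6 small heat shock proteins did.

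The other 5 small heat shock proteins did not pass. Hspb1 differed by -0.99 (95% interval -2.32 to 0.34), Hspb8 by -0.90 (-2.40 to 0.61), Cryab by -1.13 (-2.57 to 0.31) and Hspb2 by 0.17 (-1.32 to 1.66). These intervals reach below -1 in all 4 genes, so a 2-fold difference between the knockdowns is not excluded by them. Hspb3 differed by -2.49 (-4.41 to -0.56), with an adjusted p of 0.242 by the z test over all genes. When the error was reduced for the shared controls, Hspb3 passed as well (z adjusted p = 0.0189).

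**Figure D3:**
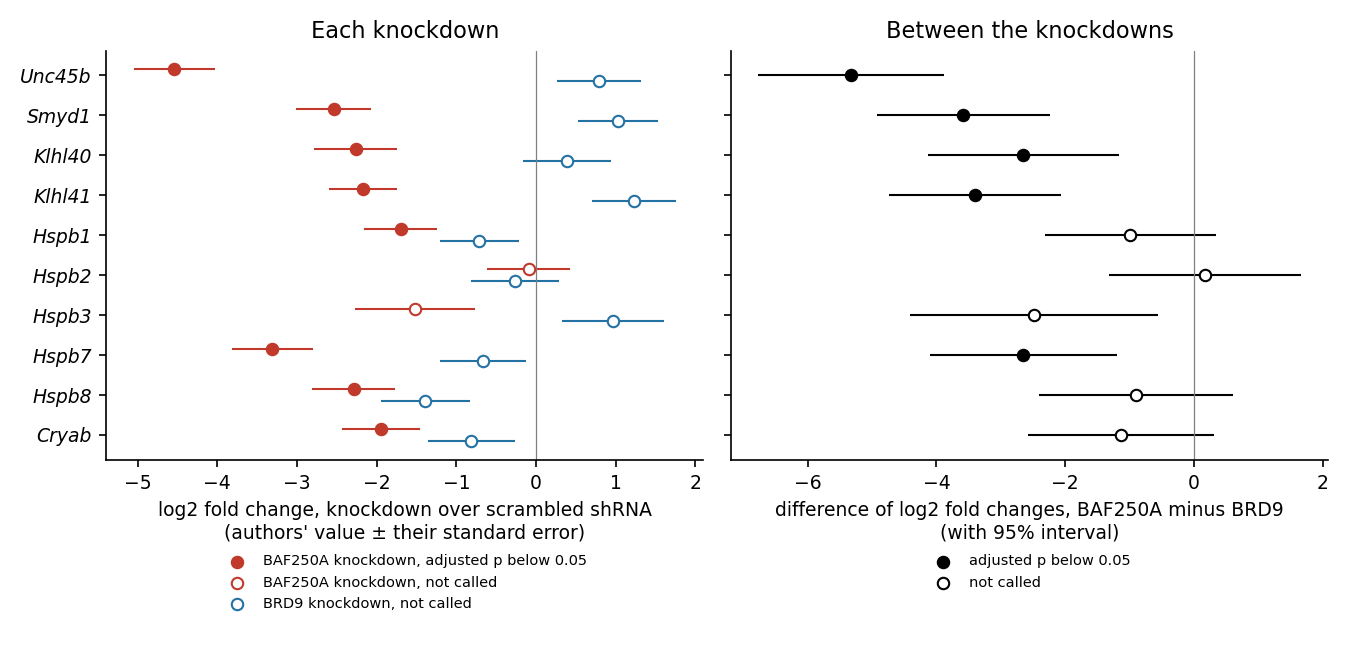
Left, the authors' log2 fold change of knockdown over scrambled shRNA, with bars of 1 standard error, for the 10 genes in BAF250A and BRD9 knockdown (filled points, adjusted p below 0.05). Right, the difference between the knockdowns with its 95% interval. The first 4 genes and Hspb3 stand left of 0 for BAF250A and right of 0 for BRD9. Hspb1, Hspb2, Hspb7, Hspb8 and Cryab stand left of 0 in both. No BRD9 point is filled.

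Per kilobase of transcript, the small heat shock proteins spanned both ends of the range. Hspb1 was the most abundant, at 9910 normalized reads per kilobase in BAF250A knockdown, 20064 in BRD9 knockdown and 33621 with scrambled shRNA. Cryab was next, at 6038 in BAF250A knockdown, 13450 in BRD9 knockdown and 24411 with scrambled shRNA. Hspb3 had the lowest mean, at 22.9 in BAF250A knockdown, 145 in BRD9 knockdown and 72.1 with scrambled shRNA. In both knockdowns its library range overlapped that of Hspb7, but within each library Hspb3 was the lower. In the scrambled shRNA the order was Hspb1, Cryab, Hspb8, Hspb2, Klhl41, Klhl40, Unc45b, Smyd1, Hspb7 and Hspb3. Only the steps from Klhl41 to Klhl40, from Smyd1 to Hspb7 and from Hspb7 to Hspb3 exceeded the range of the 2 libraries there. In BAF250A knockdown Unc45b stood at 34.9 normalized reads per kilobase. Its library range overlapped that of Hspb7 at 31.8, though Unc45b was the higher within each library. In BRD9 knockdown it stood at 1586, and with scrambled shRNA at 901. Klhl41 had the third highest level in BRD9 knockdown, at 6031 per kilobase, although its library range overlapped that of Hspb8.

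Some calls depended on which scrambled library was kept, in a limma fit on the recovered reads that was added after the data were seen. The fit with all 6 libraries called the same 8 genes lower in BAF250A knockdown (15.5% of all genes were called lower), 0 in BRD9 knockdown and the same 5 between the knockdowns (2.4% of all genes were called lower). Leaving out a control leaves 1 control library, which the fit assumes to vary like the other groups. Without scrambled library 1, all 10 were called lower in BAF250A knockdown (20.9% of all genes were). Without scrambled library 2, 6 were called lower (13.3% of all genes) and Hspb2 higher (10.9% of all genes). Klhl41 (limma adjusted p = 0.0604) and Cryab (limma adjusted p = 0.0535) were then missed. Hspb2 changed direction, at a log2 fold change of -0.67 without library 1 and 0.80 without library 2, and passed in both fits (limma adjusted p = 0.0462 and 0.0432). Without BAF250A library 1, 5 genes were called lower (8.74% of all genes), with Klhl40, Hspb1 and Cryab missed.

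In BRD9 knockdown the calls depended on which control was kept. Without scrambled library 1, 5 small heat shock proteins were called lower (Hspb1, Hspb2, Hspb7, Hspb8 and Cryab, where 16.1% of all genes were) and Smyd1 was called higher (13.5% of all genes). Without scrambled library 2, 0 were lower (8.07% of all genes) and Unc45b, Smyd1 and Klhl40 were higher (5.71% of all genes). Smyd1 was called higher in both fits, at 0.70 and 1.55 on the log2 scale. Between the knockdowns the limma difference compares the BAF250A and BRD9 libraries directly, so leaving out a scrambled library could hardly change its size. For Unc45b it was -5.50 with all libraries and without either control. These fits therefore cannot show how much the controls matter for that comparison. In them, 5 genes were called without either of the scrambled libraries (1.9% and 1.88% of all genes were called lower). Without BAF250A library 1 or either BRD9 library that count was 3 (1.45%, 0.554% and 1.78% of all genes), and Klhl40 and Hspb7 were the genes missed.

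Genes of other chaperone systems were mostly not called in BAF250A knockdown, as were most of all genes tested (11721 of 16450). Of 12 tested HSP90 genes and cochaperones 0 fell and 2 rose, where 11.2% of all genes rose: the p23 cochaperone Ptges3 by 1.60 (SE 0.56) and Sugt1 by 1.60 (SE 0.43), per the authors' deposited table. Of 22 genes of the HSP70 and HSP40 system and chaperone-assisted autophagy, 4 fell and 2 rose, where 17.5% of all genes fell, so the share that fell was near the background. The constitutive Hspa8 stood at 1.59 (SE 0.42), and the heat-inducible Hspa1a, which is nearly identical to Hspa1b, at -2.72 (SE 0.51), per the authors' deposited table. In the same list Hspa1l fell by 2.15 (SE 0.58), per the authors' deposited table. Of 8 genes of the TRiC chaperonin, which folds actin and tubulin, only Cct4 was called, at 1.74 (SE 0.44), per the authors' deposited table. Of 15 chaperones of the endoplasmic reticulum and mitochondria 4 rose and 0 fell, led by the mitochondrial chaperonin Hspd1 at 1.46 (SE 0.46), per the authors' deposited table. Among the heat shock factor genes 1 of 4 was called (Hsf4, 1.44, SE 0.55, per the authors' deposited table). Of 3 other tested small heat shock proteins only Hspb11, an intraflagellar transport subunit, was called, at 2.36 (SE 0.45), per the authors' deposited table.

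Many genes of the proteins that these chaperones serve were lower too, but not all. Desmin (Des, -0.79, SE 0.49), filamin C (Flnc, -0.65, SE 0.44) and nebulin (Neb, -0.98, SE 0.46) were not called in BAF250A knockdown, per the authors' deposited table. Of 13 clients and anchors of the sarcomere 10 fell and 0 rose in BAF250A knockdown, with a median log2 fold change of -3.21, where 17.5% of all genes fell, 11.2% rose and the median was -0.18. The embryonic myosin Myh3 stood at -4.38 (SE 0.44), the perinatal myosin Myh8 at -5.05 (SE 0.57) and the titin cap gene Tcap at -5.21 (SE 0.78), per the authors' deposited table. Myosin heavy chain genes are close in sequence, so their reads may be split among them. Among 7 tested genes of other muscle kelch proteins and of kelch partners 3 fell and 0 rose, beside the same shares of all genes. Those that fell were the leiomodins Lmod3 (-3.40, SE 0.45) and Lmod2 (-3.21, SE 0.44) and the kelch gene Klhl30 (-1.78, SE 0.50), per the authors' deposited table. Of 8 muscle transcription factors 5 fell and 0 rose, beside the same shares, among them Mef2c at -2.23 (SE 0.69) and Myog at -1.94 (SE 0.53), per the authors' deposited table. Of 5 SMYD and skNAC genes only Naca was called, at 1.96 (SE 0.43), per the authors' deposited table, and the gene symbol does not separate its muscle form.

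Other markers moved in BAF250A knockdown as well. All 4 myotube markers (Myog, Ckm, Myh3 and Mymk) fell, and Ckm, the only one with recovered reads, had 284 and 371 normalized reads in BAF250A knockdown, against 6534 and 21879 with scrambled shRNA. Of the 4 smooth muscle markers 3 rose, and the 2 with recovered reads (Myh11 and Cnn1) summed to 4319 and 5410 in BAF250A knockdown, against 341 and 441 with scrambled shRNA, nearly all of it Cnn1. The 4 markers of undifferentiated myoblasts summed to 7008 and 6501 in BAF250A knockdown, against 4193 and 3105 with scrambled shRNA, but its members went opposite ways. Id3 rose, with 5887 and 5332 normalized reads in BAF250A knockdown, against 745 and 1216 with scrambled shRNA. Myf5 fell, with 428 and 478 normalized reads in BAF250A knockdown, against 2652 and 763 with scrambled shRNA, and Pax7 and Id1 were not called. Of the neuron markers 2 of 3 fell (Tubb3 and Map2), and the 3 summed to 402 and 436 in BAF250A knockdown, against 4754 and 6986 with scrambled shRNA. The 4 macrophage markers summed to 69.7 and 70.3 in BAF250A knockdown, against 129 and 181 with scrambled shRNA, again with members going opposite ways. Cd68 fell, with 18.6 and 29.1 normalized reads in BAF250A knockdown, against 123 and 178 with scrambled shRNA. Lyz2 rose, with 51.1 and 41.2 normalized reads in BAF250A knockdown, against 1.2 and 2.61 with scrambled shRNA. Their defining genes Ptprc and Adgre1, and the epithelial Epcam, had 0 reads in every knockdown library. Of the endothelial markers 1 of 2 tested fell (Kdr), and of the 3 epithelial markers 0 were tested. The part of these shifts in the chaperone values was not tested.

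In BRD9 knockdown the called genes of the same lists were mostly higher, where 5.11% of all genes were called higher and 9.33% lower. Of the sarcomere clients 3 of 13 rose and 0 fell, with Actn2 at 2.53 (SE 0.63), Myh8 at 2.40 (SE 0.64) and Myh1 at 1.71 (SE 0.50), per the authors' deposited table. Of 10 tested kelch genes and partners 2 rose, nebulin (Neb) by 2.43 (SE 0.65) and Kbtbd12 by 4.36 (SE 1.25), per the authors' deposited table, the second at a mean normalized count of only 9.14. Hspb6, a small heat shock protein of smooth and striated muscle, fell by 1.46 (SE 0.53), per the authors' deposited table. Hspb11 rose by 1.63 (SE 0.53), per the authors' deposited table, and the third gene of that list was not called. Hspa8 rose by 1.56 (SE 0.47), the HSP40 gene Dnaja1 by 1.92 (SE 0.55) and Ptges3 by 2.12 (SE 0.60), per the authors' deposited table. Of the 8 muscle transcription factors Myod1 rose by 1.67 (SE 0.53) and Myf5 fell by 1.78 (SE 0.62), per the authors' deposited table. Hspd1, Cct4 and Naca were the genes called in their lists and were higher. Among the markers 0 of 4 myotube genes were called, and Ckm had 11033 and 7414 normalized reads in BRD9 knockdown, inside the control range. Other markers were called. Pax7, the satellite cell factor, rose by 4.26 (SE 0.53; Wald adjusted p = 7.05e-14), per the authors' deposited table, with 842 and 1112 normalized reads in BRD9 knockdown, against 54.1 and 34.8 with scrambled shRNA. Map2 rose by 1.96 (SE 0.73), Cd68 fell by 2.46 (SE 0.62) and Kdr fell by 5.32 (SE 0.78), per the authors' deposited table. The part of these markers in the chaperone values was not tested.

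**Figure D4:**
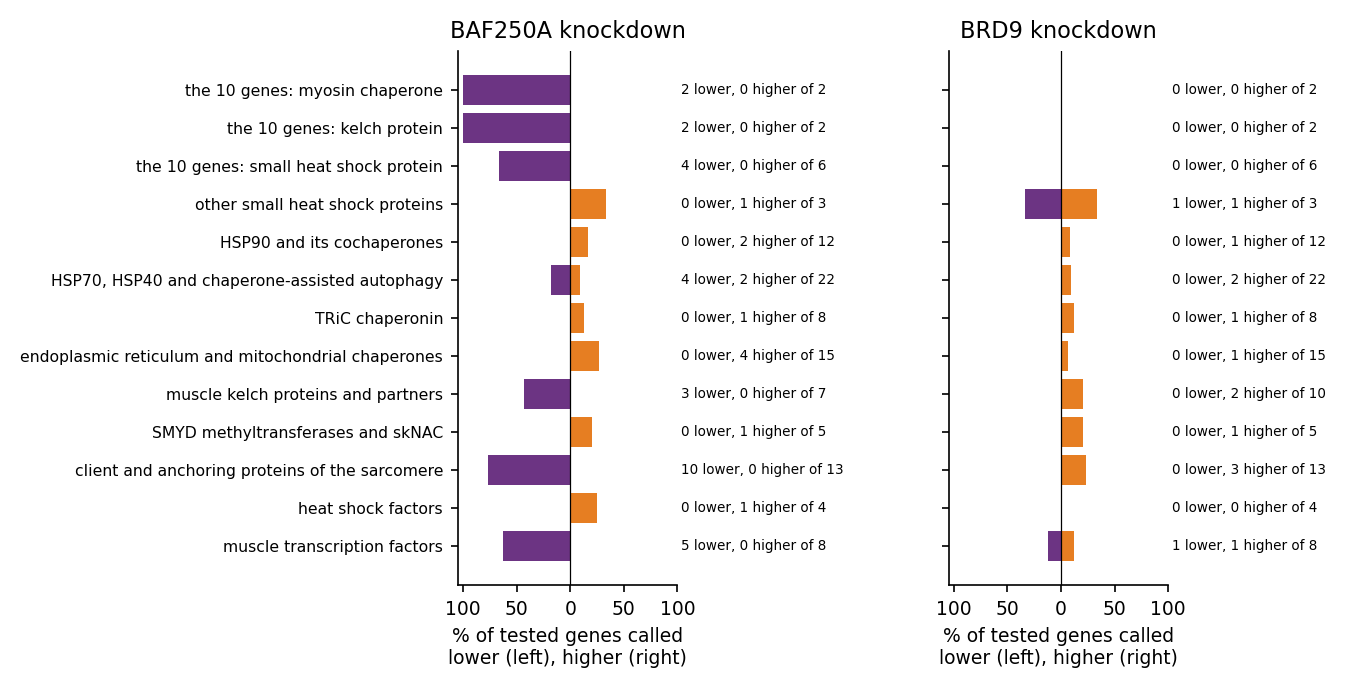
Percent of tested genes called lower (purple, left) or higher (orange, right) at a deposited adjusted p below 0.05, for the 10 genes by class and for related gene lists, in BAF250A knockdown (left panel) and BRD9 knockdown (right panel). Counts stand beside each bar. In BAF250A knockdown the called genes among the 10 and among the sarcomere clients lie on the lower side, while the 2 called HSP90 cochaperones lie on the higher side.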

How the data were processed

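The authors' 2 comparison tables were used, 1 per knockdown. The authors used HISAT, StringTie, Bowtie, RSEM and DESeq2 with the build mm10, per the submitters' processing notes, which give no role or version. The deposited mean normalized count is a signal over the libraries of a comparison, and fold changes and their standard errors were deposited on the log2 scale, per the file headers. A Wald score, a p-value and an adjusted p-value are also in the authors' tables, per the file headers. Positive fold changes were taken as higher in the knockdown, and this set which 2 libraries of each table are the scrambled shRNA. The recovery then required these 2 libraries to have the same reads in both tables.

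Whole reads per library were found as the integers whose mean, fold change and error match both tables within 1e-05 on the log2 scale (3e-06 where several did). This used a negative binomial fit with a zero-centred normal prior on the fold change, so the deposited log2 fold changes are shrunken towards 0. Of 20579 genes 19967 were resolved (97%). The 612 others, among them Myog, Myh3 and Mymk, have no value per library. The whole reads were an addition made after the tables were seen, so the deposited Wald test stayed the main test. They were fitted with limma 3.58.1 (voom) in R 4.3.3, and scripts ran in Python 3.11.15 with scipy 1.17.1. Both procedures were tested on simulated data. The limma simulation gave all groups the same spread, unlike the controls here, so it does not vouch for these fits. Gene positions and transcript lengths are from GENCODE M21, a GRCm38 annotation. The 10 genes and the related lists were chosen with earlier results of these data known. All 10 genes are reported whatever their values, and of each related list at most the 4 largest called changes per table were open to naming. Des, Flnc and Neb, not called in BAF250A knockdown, were named besides because the text describes their proteins. No other column of per-sample values was left unused (0), and BAF180 libraries were not analysed here.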

Additional observations from a re-analysis of the deposited data

How the results depend on the processing

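In BAF250A knockdown the count of 8 called genes was 4 with Bonferroni adjustment, 4 in a test against a log2 fold change of at most 1, and 1 (Unc45b) when the z scores were scaled by their own spread over all genes (SD 2.18). It was 8 with only genes at a mean of 10 or more or 100 or more, at an adjusted p below 0.01, and with fold changes centred on their median. In BRD9 knockdown the count was 0 under each of these settings and in limma. Between the knockdowns the count of 5 was 3 with Bonferroni adjustment, 3 at an adjusted p below 0.01 and 3 in the test against 1, with Klhl40 and Hspb7 missed, and 6 with the error reduced for the shared controls. The limma fits on recovered reads, with and without each library, were chosen after seeing the data. With 1 library left out the counts ranged from 5 to 10 for BAF250A, from 0 to 6 for BRD9 and from 3 to 5 between the knockdowns. Hspb2 in BAF250A knockdown, at -0.09 as deposited, was 0.08 in limma with all libraries and ranged from -0.67 to 0.80 in the fits without a library, positive in 5 of 6. In BRD9 knockdown Klhl40 ranged from -0.14 (without scrambled library 1) to 1.25 and Hspb2 from -0.85 to 0.63 (without scrambled library 2). The cause of these changes was not tested. No paired analysis was possible because the tables carry no library letters and the recovered libraries could not be tied to A or B. Hspb3, at 12 to 126 whole reads, is limited by depth.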
